A study of Homo sapiens with 36 samples.

Results

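THP-1 is a human monocytic leukaemia cell line. The comparison described here is the hypercapnia response of its control line under LPS, and its members are the 3 libraries of shNT cells kept at 10% CO2 with LPS and the 3 libraries of shNT cells kept at 5% CO2 with LPS, 6 of the 36 libraries of the series. shNT cells carry a lentiviral non-target short hairpin RNA, so no gene was targeted in any of the 6 libraries, and both groups share the hairpin, the buffered medium and LPS, a bacterial cell wall component that monocytes sense through TLR4. The cells had been in their CO2 chamber for 2 h when LPS was added at 2.5 µg/ml, and they were lysed after a further 2 h, so that CO2 exposure lasted 4 h. The other libraries came from resting shNT cells and from lines with hairpins against the nuclear receptor genes NR4A2 (shNR4A2) or NR4A3 (shNR4A3), each at both CO2 levels. They enter here only where their own values are set beside the response, or to make a list of LPS-responsive genes.

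Hypercapnia is an excess of CO2 in blood and tissue and occurs in severe lung disease. Dissolved CO2 is hydrated to bicarbonate and protons, a reaction speeded by carbonic anhydrases, and a buffered medium is used to limit the change in its pH. Monocytes answer LPS within hours through NF-kB and other transcription factors, with cytokines, chemokines and the proteins that later switch the response off.

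Replicates were labelled as separate samples of a group, and the study's captions describe its data as coming from individual experiments. The labels do not name the culture each library came from, so p-values measure the spread between these samples, part of which may be technical. The 6 libraries, named C1, C2 and C3 for replicates 1 to 3 at 5% CO2 and H1, H2 and H3 for those at 10% CO2, held 18450090 to 22151327 counts each. NR4A2 was at 51.5 to 81.5 CPM (a count scaled to the library total) in the 6 shNT libraries and at 15.7 to 30.9 CPM in the 6 shNR4A2 libraries with LPS, and NR4A3 was at 54.9 to 70.4 CPM in the former and at 22.9 to 35.7 CPM in the 6 shNR4A3 libraries with LPS. All 20 monocyte markers examined were measured, among them CD33 (40.5 CPM at 5% CO2), CD4 (204.7 CPM) and SPI1 (428.5 CPM), and edgeR called none (7 at an unadjusted p under 0.05), although CD14 was low at 7.85 CPM. Of 40 markers of T, NK, B, erythroid, epithelial and mesenchymal cells, 15 passed the expression filter, 1 of them was called (TRAC, lower), and none of the 8 erythroid genes passed. Transcripts of the mitochondrial genome made up 1.60%, 1.28% and 1.78% of the libraries at 5% CO2 (replicates 1 to 3) and 2.92%, 4.15% and 2.28% at 10% CO2.

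At 10% CO2, 1452 of the 17720 genes tested were called, 792 higher (4.47%) and 660 lower (3.72%). A gene is called when edgeR's quasi-likelihood test gives an adjusted p (Benjamini-Hochberg, over all genes tested) under 0.05, and every adjusted p below comes from that test. Called genes made up 8.19% of all genes tested and 14.4% of the 7201 genes with a mean of 20 CPM or more, which is the nearer background for lists of well-expressed genes (8.53% higher, 5.92% lower). The changes were modest. The median called gene changed 1.37-fold in either direction, 198 rose and 233 fell by 1.5-fold or more, and 42 rose and 48 fell by 2-fold or more. All 3 libraries at 10% CO2 lay on one side of the 3 at 5% CO2 for 30.0% of all genes tested, and for all but 3 of the called genes. Separate groups in a called gene, reported below, are therefore a description and no added evidence. The number of calls depended on single libraries. Leaving out H2, C1, C2 or H3 gave 334, 370, 476 and 674 calls, leaving out H1 gave 1060, and leaving out C3 gave 2148. Of the calls 54.5% were higher with TMM scaling and 39.2% with library totals alone (522 higher, 811 lower), since that scaling moved the median gene by -0.05 on the log2 scale.

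**Figure D1:**
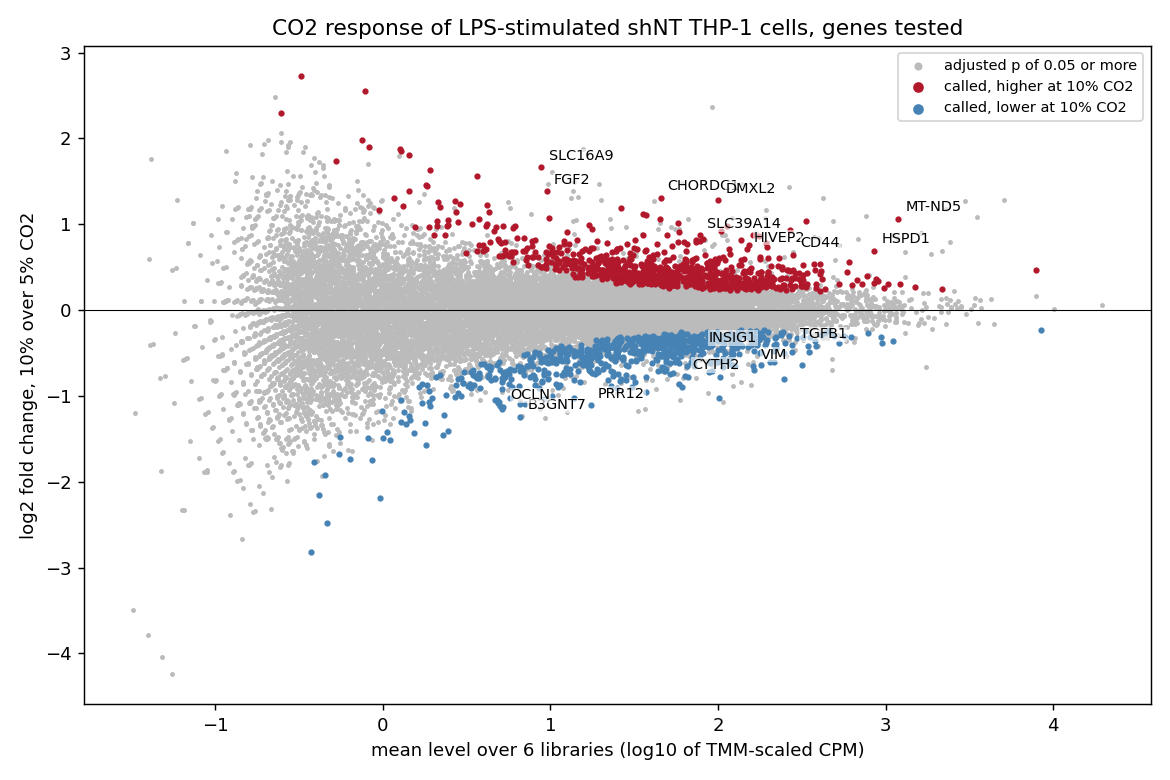
Log2 fold change of 10% over 5% CO2 in LPS-stimulated shNT cells (vertical axis) against mean expression over the 6 libraries as log10 TMM-scaled CPM (horizontal axis, logarithmic), 1 point per gene tested, Y-linked genes and XIST left out. Red points are called higher and blue points called lower (792 and 660 over all genes tested), and most lie within 2-fold of no change.

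The smallest p value belonged to SLC39A14, which encodes a zinc, iron and manganese importer of the plasma membrane. Its level was 55.5, 54.0 and 56.3 CPM at 5% CO2 and 101, 103 and 99.4 CPM at 10% CO2 in replicates 1 to 3 (log2 fold change 0.87, SE 0.07, adjusted p = 0.000186). The groups were far apart relative to the spread within either. SHROOM3, an actin-binding regulator of cell shape, was at 98.5, 92.9 and 106 CPM at 5% CO2 and 178, 181 and 165 CPM at 10% CO2 (log2 fold change 0.82, SE 0.08, adjusted p = 0.000486). FGF2, a growth factor, was at 4.69, 4.34 and 6.76 CPM at 5% CO2 and 12.8, 16.2 and 12.4 CPM at 10% CO2 (log2 fold change 1.38, SE 0.18, adjusted p = 0.0033). NAV3, a microtubule-binding protein, was at 219.7, 185 and 249 CPM at 5% CO2 and 475, 482 and 393 CPM at 10% CO2 (log2 fold change 1.04, SE 0.11, adjusted p = 0.0033). In each of these genes the lowest library at 10% CO2 exceeded the highest at 5% CO2, which nearly all called genes share. Also among the 12 smallest p values in the upward direction were DDX60L (0.61, adjusted p = 0.00205), a helicase related to antiviral DDX60, CEP120 (0.80, adjusted p = 0.00317), a centriole protein, and TRMT13 (0.78, adjusted p = 0.0033), a tRNA methyltransferase, given here and below with the log2 fold change first. By size, the leading called genes without overlap included SLC16A9, a monocarboxylate transporter family member, at 2.80, 3.42 and 6.44 CPM at 5% CO2 and 10.4, 16.8 and 13.1 CPM at 10% CO2 (log2 fold change 1.66, SE 0.31, adjusted p = 0.0216). DMXL2, a regulator of the vesicular proton pump, was at 58.8, 47.1 and 68.9 CPM at 5% CO2 and 129.5, 168 and 128 CPM at 10% CO2 (log2 fold change 1.28, SE 0.16, adjusted p = 0.00571). FNIP2, a partner of folliculin in nutrient signalling, rose by a log2 fold change of 1.19 (adjusted p = 0.00423), RXFP1, the relaxin receptor, by a log2 fold change of 1.12 (adjusted p = 0.0302), and ST6GAL1, a sialyltransferase, by a log2 fold change of 1.11 (adjusted p = 0.0267). PLA2G4A, the cytosolic phospholipase that releases arachidonic acid, was at 5.80, 5.60 and 7.40 CPM at 5% CO2 and 11.7, 16.4 and 11.6 CPM at 10% CO2 (log2 fold change 1.07, SE 0.17, adjusted p = 0.00467).

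Among genes that fell, CYTH2, an exchange factor for ARF GTPases, was at 85.4, 79.6 and 74.1 CPM at 5% CO2 and 44.9, 45.4 and 49.8 CPM at 10% CO2 (log2 fold change -0.77, SE 0.08, adjusted p = 0.00205). VIM, the intermediate filament protein vimentin, was at 205, 202 and 189 CPM at 5% CO2 and 121, 114 and 145 CPM at 10% CO2 (log2 fold change -0.65, SE 0.09, adjusted p = 0.0033). MXD4, a MAX partner that opposes MYC, was at 60.8, 62.8 and 57.8 CPM at 5% CO2 and 38.5, 36.5 and 37.5 CPM at 10% CO2 (log2 fold change -0.69, SE 0.08, adjusted p = 0.00205). None of these 3 genes had overlapping groups. A pair of autophagy genes stood among the 12 smallest p values in the downward direction. ULK1, the kinase that starts autophagosome formation, was at 51.1, 47.2 and 48.0 CPM at 5% CO2 and 32.5, 29.9 and 32.9 CPM at 10% CO2 (log2 fold change -0.62, SE 0.08, adjusted p = 0.0033). WIPI2, which binds the growing autophagosome membrane, was at 82.5, 83.2 and 82.9 CPM at 5% CO2 and 53.6, 55.4 and 54.7 CPM at 10% CO2 (log2 fold change -0.60, SE 0.07, adjusted p = 0.0024). UNC93B1, the chaperone that carries endosomal Toll-like receptors, was at 138, 125 and 118 CPM at 5% CO2 and 85.1, 80.5 and 89.3 CPM at 10% CO2 (log2 fold change -0.58, SE 0.08, adjusted p = 0.0033). The same set held NARF (-0.77, adjusted p = 0.00205). Of called genes at 5 CPM or more without overlap between groups, which the choice of these genes required, the largest decreases included those of B3GNT7, a glycosyltransferase, at 9.95, 10.3 and 7.68 CPM at 5% CO2 and 3.65, 2.30 and 5.68 CPM at 10% CO2 (log2 fold change -1.24, SE 0.27, adjusted p = 0.0242), and of OCLN, the tight junction protein occludin, at 7.05, 7.52 and 6.94 CPM at 5% CO2 and 4.36, 2.19 and 3.31 CPM at 10% CO2 (log2 fold change -1.12, SE 0.21, adjusted p = 0.00919). The 12 largest decreases among them also held PRR12 (-1.11, adjusted p = 0.0033), TEAD3 (-1.09, adjusted p = 0.00332), a transcription factor of the Hippo pathway, OSBPL5 (-1.02, adjusted p = 0.0176), a lipid transfer protein, RARA (-0.996, adjusted p = 0.0142), the retinoic acid receptor alpha, and DOK3 (-0.96, adjusted p = 0.00467), an adaptor that restrains immune receptor signalling.

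**Figure D2:**
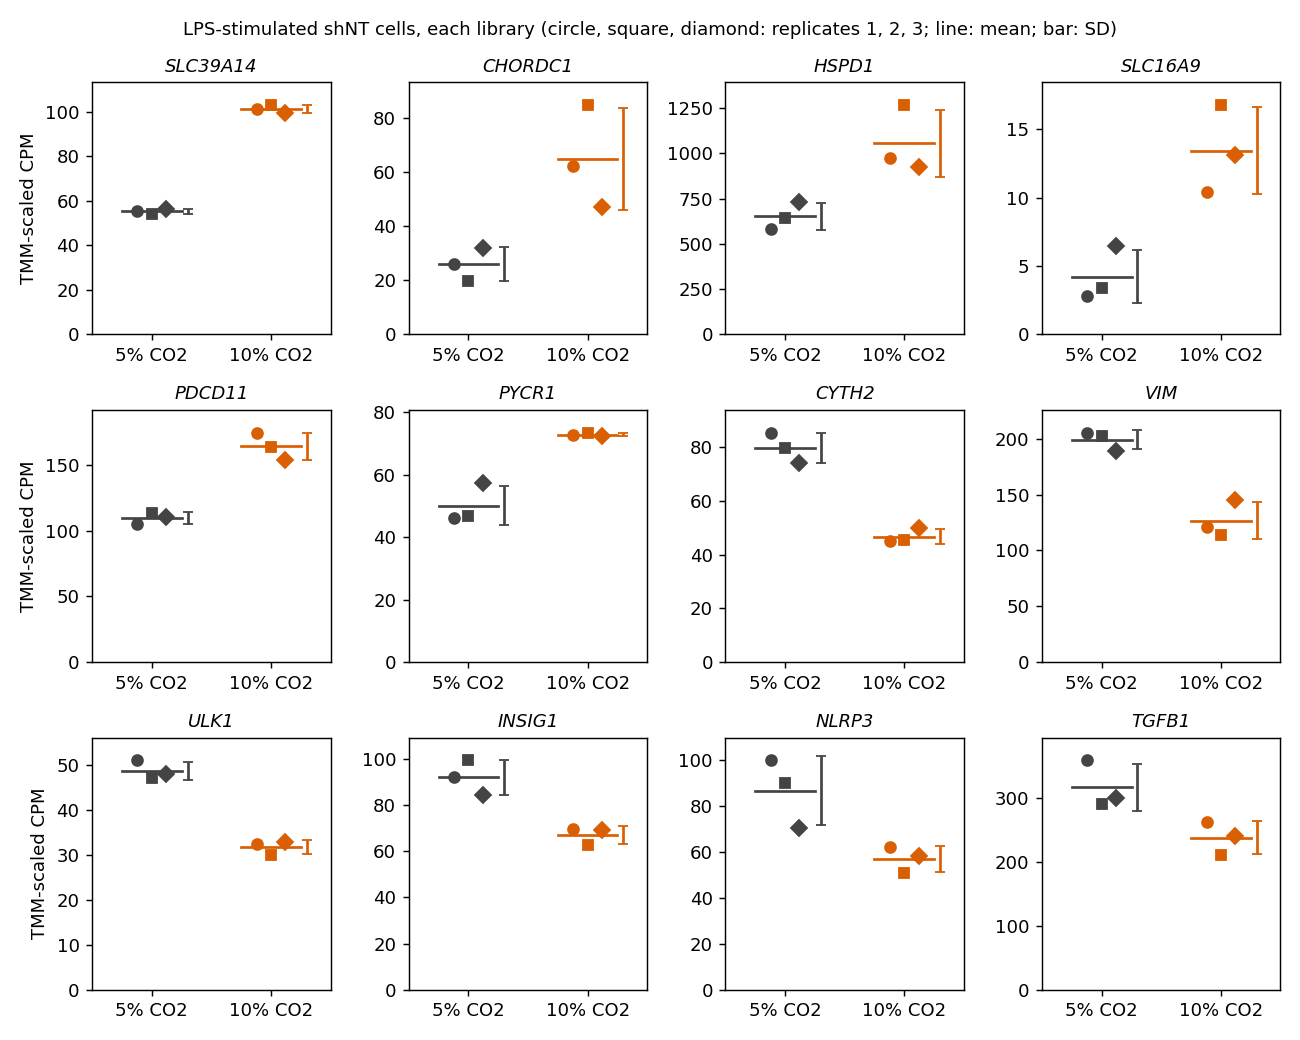
TMM-scaled CPM (linear axes from 0) of 12 genes in each LPS-stimulated shNT library at 5% CO2 (grey) and 10% CO2 (orange), with circle, square and diamond for replicates 1, 2 and 3, a line for the mean and a bar for the SD. In all 12 panels the groups do not overlap, from SLC39A14, whose replicates nearly coincide, to CHORDC1, whose libraries at 10% CO2 span 62.2, 84.7 and 47.2 CPM.

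Protein-folding genes had calls almost all in the upward direction. Chaperones bind unfolded proteins, the HSP70 and HSP90 systems with their co-chaperones acting in sequence and the ring-shaped TRiC complex folding actin, tubulin and other clients in its chamber. Of 15 subunits of TRiC and prefoldin tested, 8 were called, all higher (53.3%, against 8.53% of genes of 20 CPM or more), and the median log2 fold change of the list was 0.31, with -0.0034 over all genes tested. The called TRiC subunits were CCT2, CCT3, CCT4, CCT5, CCT6A, CCT7 and TCP1. CCT3 was at 482, 476 and 534 CPM at 5% CO2 and 666, 749.5 and 617 CPM at 10% CO2 (log2 fold change 0.45, SE 0.08, adjusted p = 0.00839), and CCT4 at 250.3, 254 and 276 CPM at 5% CO2 and 339.8, 387 and 326 CPM at 10% CO2 (log2 fold change 0.43, SE 0.08, adjusted p = 0.00814). The smallest of the 3 values at 10% CO2 stood above the largest at 5% CO2 in 12 of the 15 genes, against 15.7% of all genes tested. Leaving out 1 library gave 2 to 10 members called higher, with 2 without C1 or H2, 3 without C2 and 5 without H3.

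Of 41 cytosolic chaperones and co-chaperones, 8 were called (19.5%), all higher, and the list's median was 0.27. CHORDC1, an HSP90 co-chaperone, was at 26.2, 19.8 and 32.1 CPM at 5% CO2 and 62.2, 84.7 and 47.2 CPM at 10% CO2 (log2 fold change 1.31, SE 0.28, adjusted p = 0.0481). FKBP4, an HSP90 partner in steroid receptor complexes, was at 23.6, 25.5 and 26.0 CPM at 5% CO2 and 40.9, 57.1 and 39.7 CPM at 10% CO2 (log2 fold change 0.87, SE 0.13, adjusted p = 0.00485). STIP1, which links HSP70 with HSP90, was at 229.8, 215 and 258 CPM at 5% CO2 and 311, 376 and 289 CPM at 10% CO2 (log2 fold change 0.47, SE 0.10, adjusted p = 0.0184). Among the large chaperones HSPA4 was called, whereas HSPA8 and HSPH1 had higher means with wide spread at 10% CO2 and were not. HSPA8, the constitutive HSP70, was at 1745, 1406 and 2166 CPM at 5% CO2 and 3001, 3751 and 2470.4 CPM at 10% CO2 (log2 fold change 0.79, SE 0.22, adjusted p = 0.0951). HSPH1, an HSP110 exchange factor, was at 124, 105 and 197 CPM at 5% CO2 and 341, 532 and 284 CPM at 10% CO2 (log2 fold change 1.44, SE 0.37, adjusted p = 0.0927). In both genes the order of the libraries at 10% CO2 was replicate 2, then 1, then 3, the same order as the mitochondrial share of counts. That order also held for CHORDC1, HSP90AA1 (0.65, adjusted p = 0.1) and DNAJA1 (0.76, adjusted p = 0.0727), and its part in these values was not tested. The stress-inducible HSPA1A, which has a near-identical copy in HSPA1B so that its counts are uncertain, was at 14.7, 12.8 and 15.5 CPM at 5% CO2 and 20.4, 33.8 and 17.3 CPM at 10% CO2 (adjusted p = 0.124). Members called fell to 1 without C1, 2 without C2 and 3 without H2, and were 15 without C3. DESeq2 called 19 members, all higher. The study, which used DESeq2, reports HSP90AA1, HSPA1A, DNAJA1 and HSPH1 as CO2-sensitive in shNT cells with LPS. In the endoplasmic reticulum list 2 of 29 genes rose and 1 fell, with a median of 0.05. SERPINH1, the collagen chaperone, was at 44.004, 46.4 and 58.7 CPM at 5% CO2 and 74.9, 91.0 and 74.1 CPM at 10% CO2 (log2 fold change 0.69, SE 0.12, adjusted p = 0.00843).

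The promoters of the chaperones show which of them hold the letters of a heat shock element, the DNA sequence bound by heat shock factors as inverted repeats of GAA. GAANNTTC and its counterpart TTCNNGAA, which read the same on both strands, were searched in the 250 bases before the start of each gene in the RefSeq table (build GRCh38.p14), and may overlap each other. One or the other was found in 11.7% of 27305 promoters, in 8.84% of the 12091 promoters of genes tested, in 10 of 36 cytosolic chaperone promoters, and in 3 of the 7 promoters held of called members, CHORDC1, DNAJB6 and BAG2, printed here 5′ to 3′ with the matches in capitals. The CHORDC1 window (chr11:90223050-90223299, minus strand) holds 6 matches, 4 of them overlapping in 1 run that begins 60 bases before the start, the DNAJB6 window (chr7:157336754-157337003, plus strand) holds 2 that overlap, and the BAG2 window (chr6:57172076-57172325, plus strand) holds 1.
CHORDC1: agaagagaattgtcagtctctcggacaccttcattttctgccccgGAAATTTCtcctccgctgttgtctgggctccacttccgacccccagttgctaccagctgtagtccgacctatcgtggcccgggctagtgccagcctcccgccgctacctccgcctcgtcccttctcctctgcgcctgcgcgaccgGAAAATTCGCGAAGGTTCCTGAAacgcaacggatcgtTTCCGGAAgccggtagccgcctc
DNAJB6: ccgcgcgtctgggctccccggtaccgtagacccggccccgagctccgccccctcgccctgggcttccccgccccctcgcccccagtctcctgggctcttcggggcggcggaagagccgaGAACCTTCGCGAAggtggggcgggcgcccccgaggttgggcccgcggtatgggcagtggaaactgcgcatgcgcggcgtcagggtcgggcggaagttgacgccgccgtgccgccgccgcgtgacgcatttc
BAG2: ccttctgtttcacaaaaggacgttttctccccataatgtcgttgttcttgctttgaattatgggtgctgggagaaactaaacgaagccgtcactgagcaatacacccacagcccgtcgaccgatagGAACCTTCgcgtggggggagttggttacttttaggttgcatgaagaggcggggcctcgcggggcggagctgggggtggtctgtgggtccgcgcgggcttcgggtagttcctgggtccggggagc
DNAJB6, an HSP40 that holds back protein aggregation, had a log2 fold change of 0.39, and BAG2, an HSP70 exchange factor, one of 0.43, both called. The other 4 called genes with a promoter in the table, CACYBP, HSPA4, DNAJC2 and STIP1, hold no match in this window, and 1 of 6 called TRiC and prefoldin promoters holds one (TCP1). Of 33 promoters of genes for mitochondrial import, transcription and folding, 2 hold one (6.06%). Among the 5 of called members it is that of TOMM70, and the promoters of the chaperonin genes HSPD1 and HSPE1 hold none. A match describes letters and was not tested as a binding site.

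Among genes for making ribosomes small increases were common. RNA polymerase I transcribes ribosomal RNA in the nucleolus, where processing factors cut and modify it and assemble the subunits. Of 102 genes for ribosomal RNA synthesis and ribosome biogenesis tested, 30 rose and 1 fell (30.4% called), the median was 0.20, and 64 had all libraries at 10% CO2 above all those at 5%, against 15.7% of all genes tested. POLR1A, the largest subunit of RNA polymerase I, was at 72.3, 90.2 and 78.5 CPM at 5% CO2 and 128, 122 and 116 CPM at 10% CO2 (log2 fold change 0.61, SE 0.09, adjusted p = 0.00368). WDR36, part of the small-subunit processome, was at 49.3, 49.8 and 52.1 CPM at 5% CO2 and 71.6, 80.2 and 76.8 CPM at 10% CO2 (log2 fold change 0.60, SE 0.08, adjusted p = 0.0033). DDX10, a nucleolar helicase, was at 39.8, 33.5 and 36.8 CPM at 5% CO2 and 59.0, 61.1 and 55.6 CPM at 10% CO2 (log2 fold change 0.67, SE 0.09, adjusted p = 0.0033). The groups were apart in all 3. PDCD11, a processing factor for ribosomal RNA that was named for its small p, was at 105, 113 and 110.4 CPM at 5% CO2 and 174, 164 and 154 CPM at 10% CO2 (log2 fold change 0.58, SE 0.07, adjusted p = 0.0033), and URB1 rose by a log2 fold change of 0.59 (adjusted p = 0.00377). The exception was UBTF, the factor that loads RNA polymerase I onto ribosomal DNA, at 202, 203 and 166 CPM at 5% CO2 and 153, 114 and 143 CPM at 10% CO2 (log2 fold change -0.48, SE 0.11, adjusted p = 0.0316). The count of members called higher was 9 without C1, 11 without H2, 14 without C2 and 17 without H3, and otherwise 20 or 34. Of 82 cytosolic ribosomal protein genes edgeR called none, with 15 at an unadjusted p under 0.05 and a median of 0.09, and DESeq2 called none either.

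Translation genes were called in the same direction. Of 22 cytosolic aminoacyl-tRNA synthetases, which charge tRNAs with amino acids, 6 rose and none fell. That was 27.3% of the list, against 8.53% called higher among genes of 20 CPM or more. LARS1, for leucine, was at 225, 219.6 and 234 CPM at 5% CO2 and 308, 328 and 296 CPM at 10% CO2 (log2 fold change 0.46, SE 0.07, adjusted p = 0.00377), and NARS1, for asparagine, at 212, 204 and 237 CPM at 5% CO2 and 305, 314 and 283 CPM at 10% CO2 (log2 fold change 0.47, SE 0.08, adjusted p = 0.00505). Of 56 translation factors, 10 rose (17.9%) and none fell. ABCE1, which recycles ribosomes after termination, was at 160.2, 172 and 173 CPM at 5% CO2 and 236, 234 and 221 CPM at 10% CO2 (log2 fold change 0.45, SE 0.07, adjusted p = 0.00423), and DPH5, an enzyme of the diphthamide modification on elongation factor 2, was at 8.65, 7.86 and 9.66 CPM at 5% CO2 and 14.3, 19.0 and 15.96 CPM at 10% CO2 (log2 fold change 0.91, SE 0.14, adjusted p = 0.00423). Neither gene overlapped between groups. Among 38 genes of the ATF4 programme and of proline, serine and one-carbon metabolism, 8 rose (21.1%) and none fell, with a median of 0.18. PYCR1, the last enzyme of proline synthesis, was at 46.0, 46.9 and 57.3 CPM at 5% CO2 and 72.6, 73.4 and 72.3 CPM at 10% CO2 (log2 fold change 0.54, SE 0.09, adjusted p = 0.00634). PSPH, the last enzyme of serine synthesis, was at 15.1, 15.3 and 15.9 CPM at 5% CO2 and 22.9, 23.1 and 24.6 CPM at 10% CO2 (log2 fold change 0.61, SE 0.10, adjusted p = 0.00467). PSAT1, the step before it, was at 164, 185 and 215 CPM at 5% CO2 and 257, 284 and 266 CPM at 10% CO2 (log2 fold change 0.52, SE 0.09, adjusted p = 0.00839), and MTHFD2, the mitochondrial folate enzyme, at 361, 358 and 379 CPM at 5% CO2 and 468, 485 and 459.9 CPM at 10% CO2 (log2 fold change 0.36, SE 0.06, adjusted p = 0.00693). The groups did not overlap in any of the 4. With 1 library left out, 3 to 10 synthetases, 3 to 9 translation factors and 5 to 15 members of the ATF4 list were called higher, lowest without C2 or H2 and highest without C3 in all 3 lists.

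Mitochondrially encoded transcripts had higher means at 10% CO2, but 1 of 13 was called. These genes specify core subunits of the respiratory chain and are transcribed from both strands of the mitochondrial genome as long precursors. All 13 protein-coding genes had a positive log2 fold change, and the median was 1.07. In 12 of 13 all libraries at 10% CO2 lay above all those at 5% CO2, against 15.7% of all genes tested. MT-ND5, a subunit of complex I, was at 775, 673 and 859.6 CPM at 5% CO2 and 1467, 2089.9 and 1277 CPM at 10% CO2 (log2 fold change 1.07, SE 0.21, adjusted p = 0.0388) and was the only one called. No mitochondrially encoded gene was called without C1, C2 or H1, 3 were without H2, 4 without C3 and 7 without H3. MT-CO1, the catalytic subunit of complex IV, was at 3113, 2386 and 3344 CPM at 5% CO2 and 6809, 9994 and 4731 CPM at 10% CO2 (log2 fold change 1.28, SE 0.32, adjusted p = 0.0907). MT-ND4 was at 1739.8, 1407 and 2064 CPM at 5% CO2 and 3798, 5900.1 and 2896 CPM at 10% CO2 (log2 fold change 1.27, SE 0.32, adjusted p = 0.091). Replicate 2 was the highest at 10% CO2 and the lowest at 5% CO2 in all 3 genes. MT-ND3 was the exception, at 338, 329 and 421 CPM at 5% CO2 and 372, 448 and 401 CPM at 10% CO2 (log2 fold change 0.17, SE 0.10, adjusted p = 0.332). DESeq2 called 11 of the 13, and the fit to all 36 libraries called 8. Libraries were made from polyadenylated RNA, and nuclear copies of mitochondrial genes can share their reads. Whether the cells held more mitochondria or more of these transcripts in each cannot be told apart in bulk samples.

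Nuclear genes for mitochondrial proteins had smaller medians. Of 76 nuclear-encoded respiratory subunits 4 rose and none fell (5.26% called, under the 8.53% called higher among genes of 20 CPM or more), with a median of 0.11. None was called without C1, C2 or H2, 1 was without H1 or H3, and 12 were without C3. Of 78 mitochondrial ribosomal proteins 11 rose (14.1%) and none fell, with a median of 0.13. However, none was called without C1, C2 or H2, 3 were without H3 and 18 without C3. Of 39 genes for mitochondrial import, transcription and folding 8 rose (20.5%) and none fell. Again none was called without C1 or C2, while 2 were without H2 or H3 and 4 without H1. HSPD1, the HSP60 chaperonin of the matrix, was at 584, 642 and 731 CPM at 5% CO2 and 976, 1265 and 924 CPM at 10% CO2 (log2 fold change 0.69, SE 0.13, adjusted p = 0.0168). HSPE1, its lid, was at 81.5, 85.0 and 98.4 CPM at 5% CO2 and 128, 159 and 113 CPM at 10% CO2 (log2 fold change 0.59, SE 0.12, adjusted p = 0.0216). TFAM, the transcription and packaging factor of mitochondrial DNA, was at 58.0, 58.5 and 63.1 CPM at 5% CO2 and 72.2, 80.6 and 74.3 CPM at 10% CO2 (log2 fold change 0.34, SE 0.08, adjusted p = 0.0218). The groups were separate in all 3, and HSPD1 and HSPE1 again ran highest in H2.

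**Figure D3:**
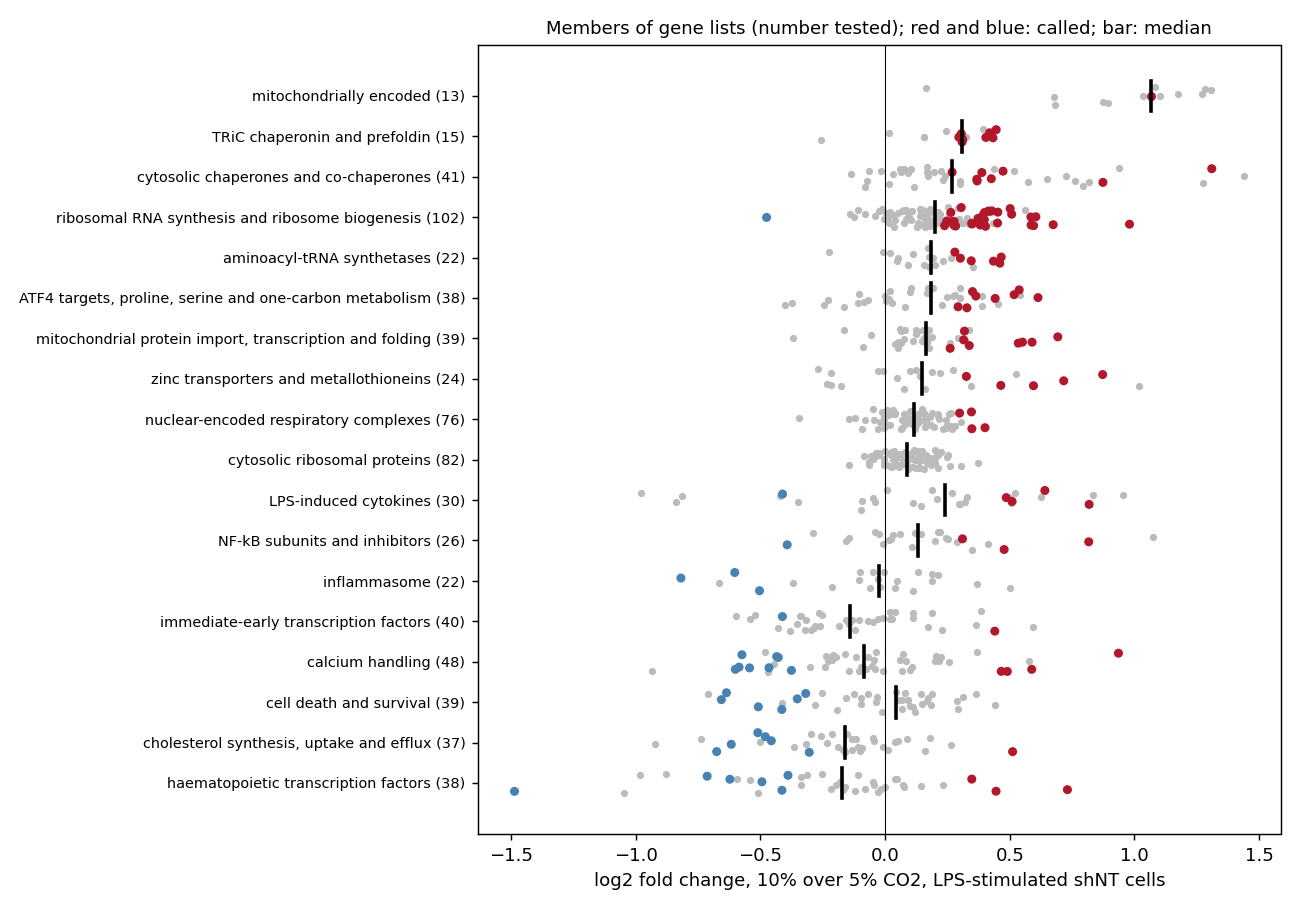
Log2 fold change of 10% over 5% CO2 (horizontal axis) of each tested member of 18 gene lists, with the number tested in brackets, red and blue for called members, and a black bar for the list's median. Called members of the chaperone, translation, mitochondrial and zinc lists are all red, with 1 blue exception in ribosome biogenesis, and called members of the cell death and inflammasome lists are all blue.

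Zinc and metal handling genes were called in 1 direction. Besides SLC39A14, SLC39A8, an importer of zinc and manganese in the same family, was at 126, 131 and 169 CPM at 5% CO2 and 205, 239 and 199 CPM at 10% CO2 (log2 fold change 0.60, SE 0.12, adjusted p = 0.0155). Metallothioneins are small proteins that bind zinc and copper. MT1G was at 9.66, 12.1 and 14.6 CPM at 5% CO2 and 17.4, 22.3 and 20.2 CPM at 10% CO2 (log2 fold change 0.72, SE 0.15, adjusted p = 0.0148), and MT1X at 15.2, 13.3 and 17.4 CPM at 5% CO2 and 20.2, 22.7 and 20.4 CPM at 10% CO2 (log2 fold change 0.46, SE 0.12, adjusted p = 0.03). Metallothionein genes are close paralogues, so the split of reads between them is uncertain. Of the list's 24 genes 5 rose and none fell, with a median of 0.15. The share called was 20.8%, against 8.53% called higher among genes of 20 CPM or more. Members called numbered 1 without C1, C2 or H2, and 3 without H3. The MT1X promoter (chr16:56682220-56682469, plus strand) is shown because metallothionein promoters are the textbook case of the metal response element. The letters TGCACNC or TGCGCNC on either strand, in capitals, occur 4 times in it, and at least once in 24.7% of all promoters and 32.6% of those of genes tested. The promoters of SLC39A8 and SLC30A5, the other called members in the table, hold no match.
MT1X: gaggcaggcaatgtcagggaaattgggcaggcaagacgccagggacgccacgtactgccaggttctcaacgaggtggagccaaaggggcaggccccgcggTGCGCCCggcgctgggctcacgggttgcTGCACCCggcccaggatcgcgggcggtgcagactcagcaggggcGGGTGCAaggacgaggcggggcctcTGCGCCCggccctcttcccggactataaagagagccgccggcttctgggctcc

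Few genes that handle CO2, bicarbonate or protons directly were called. Of 34 carbonic anhydrases, bicarbonate transporters and proton transporters tested, 2.94% were called. The share was 8.19% of all genes tested and 14.4% of those of 20 CPM or more. Applied within the 6 libraries, the expression filter kept 27 of the 34, so the others had few counts here. Only SLC4A7, an electroneutral sodium bicarbonate cotransporter, was called, and it rose. It was at 9.27, 10.998 and 14.0 CPM at 5% CO2 and 18.9, 26.8 and 22.3 CPM at 10% CO2 (log2 fold change 0.99, SE 0.16, adjusted p = 0.00793). The most abundant member, the cytosolic carbonic anhydrase CA2, was at 2678, 2559 and 2319.6 CPM at 5% CO2 and 2793, 2622 and 2540.2 CPM at 10% CO2 (log2 fold change 0.07, SE 0.07, adjusted p = 0.552). GPR132, a receptor of the proton-sensing family, was at 144, 113 and 80.4 CPM at 5% CO2 and 92.1, 67.0 and 66.3 CPM at 10% CO2 (log2 fold change -0.58, SE 0.25, adjusted p = 0.232), with wide spread. Among 31 carriers of monocarboxylates and amino acids, SLC16A9 and the lactate carrier SLC16A1 rose (0.35, adjusted p = 0.0205), and the creatine carrier SLC6A8 and the lysosomal sialic acid exporter SLC17A5 fell. SLC6A8 was at 161, 169 and 134 CPM at 5% CO2 and 105, 80.1 and 109 CPM at 10% CO2 (log2 fold change -0.65, SE 0.12, adjusted p = 0.0156). SLC6A6, the taurine carrier, was at 55.5, 47.1 and 35.8 CPM at 5% CO2 and 28.7, 13.4 and 19.2 CPM at 10% CO2 (log2 fold change -1.17, SE 0.31, adjusted p = 0.085), without overlap but not called by edgeR. The study, which used DESeq2, lists SLC6A6 as lower at 10% CO2 in every line, with and without LPS. The carriers had 1 call without C1, C2 or H2, 2 without H3 and 6 without H1.

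The main LPS-induced cytokines did not pass the test. IL1B was at 4235, 3055 and 3288 CPM at 5% CO2 and 4385, 3662 and 3389 CPM at 10% CO2 (log2 fold change 0.11, SE 0.14, adjusted p = 0.681). TNF was at 1032, 973 and 941 CPM at 5% CO2 and 1004, 893 and 861 CPM at 10% CO2 (log2 fold change -0.09, SE 0.07, adjusted p = 0.452). CXCL8 was at 3739, 3128 and 2711 CPM at 5% CO2 and 3493, 3249.5 and 2953 CPM at 10% CO2 (log2 fold change 0.02, SE 0.11, adjusted p = 0.944). The groups overlapped in all 3. Of 30 cytokines tested 4 rose and 1 fell (16.7% called, against 14.4% of genes of 20 CPM or more). IL12B, the p40 subunit of IL-12 and IL-23, was at 53.5, 48.5 and 59.1 CPM at 5% CO2 and 91.9, 121 and 71.3 CPM at 10% CO2 (log2 fold change 0.82, SE 0.19, adjusted p = 0.0482). LTB, the membrane anchor of lymphotoxin, was at 53.3, 46.7 and 59.9 CPM at 5% CO2 and 87.3, 73.3 and 63.7 CPM at 10% CO2 (log2 fold change 0.49, SE 0.12, adjusted p = 0.0344). INHBA, the activin A subunit, rose by a log2 fold change of 0.51 (adjusted p = 0.0308), and TGFB1 fell, from 359, 292 and 301 to 263, 211 and 241 CPM (log2 fold change -0.41, SE 0.10, adjusted p = 0.0253). IL23A, the partner of IL12B in IL-23, was at 255, 239.7 and 369 CPM at 5% CO2 and 399, 689 and 454 CPM at 10% CO2 (log2 fold change 0.84, SE 0.28, adjusted p = 0.156), with no overlap and wide spread at 10% CO2. Of 21 chemokines CCL20, a ligand of CCR6, was at 573, 409 and 488 CPM at 5% CO2 and 741, 759 and 666 CPM at 10% CO2 (log2 fold change 0.56, SE 0.11, adjusted p = 0.0177), and CCL4 also rose (0.39, adjusted p = 0.0172). CCL3L3 fell (-0.24, adjusted p = 0.0349), but it is a near-copy of CCL3 and its counts are uncertain. These were all the called chemokines, 14.3% of those tested. No cytokine was called without C1, 1 was called lower without C2, 1 higher and 1 lower without H1, 1 higher without H2, 2 higher without H3, and 3 higher and 4 lower without C3. Of the chemokines 1 was called without C1 or C2, none without H2 and 6 without C3.

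NF-kB genes differed in direction. REL, the c-Rel subunit, was at 197, 180.0 and 161 CPM at 5% CO2 and 238, 210.3 and 219.8 CPM at 10% CO2 (log2 fold change 0.31, SE 0.08, adjusted p = 0.0365). TRAF3, an adaptor that restrains the alternative pathway, was at 214, 172 and 216 CPM at 5% CO2 and 298, 269 and 271 CPM at 10% CO2 (log2 fold change 0.48, SE 0.09, adjusted p = 0.00976). TNIP3, an LPS-induced partner of the deubiquitinase A20, was at 28.0, 18.1 and 23.5 CPM at 5% CO2 and 45.3, 43.1 and 34.4 CPM at 10% CO2 (log2 fold change 0.82, SE 0.16, adjusted p = 0.0161). NFKBID, a nuclear IkB protein, fell from 39.4, 31.0 and 33.6 to 28.1, 24.8 and 26.3 CPM (log2 fold change -0.39, SE 0.10, adjusted p = 0.037). These 4 of 26 genes were called (15.4%, near the 14.4% of all genes of 20 CPM or more). RELA was at 137, 122 and 118 CPM at 5% CO2 and 112, 95.7 and 101 CPM at 10% CO2 (adjusted p = 0.0502), NFKBIA at 1255, 1132 and 1115 CPM at 5% CO2 and 1217, 1129.8 and 1065 CPM at 10% CO2 (adjusted p = 0.794), and the kinase gene MAP3K8 at 72.9, 57.5 and 105 CPM at 5% CO2 and 143, 219 and 135 CPM at 10% CO2 (log2 fold change 1.08, SE 0.31, adjusted p = 0.112). In LPS sensing, TLR2 rose by a log2 fold change of 0.30 (adjusted p = 0.0243), whereas PELI2, a ubiquitin ligase of the IRAK pathway, fell from 17.7, 20.1 and 15.6 to 10.5, 8.13 and 11.5 CPM (log2 fold change -0.82, SE 0.14, adjusted p = 0.00793) and the transcription factor IRF5 with a log2 fold change of -0.39 (adjusted p = 0.0234). Of 22 inflammasome genes none rose and 3 fell (13.6% called, also near 14.4%). NLRP3, the sensor of the canonical inflammasome, was at 99.8, 89.9 and 70.3 CPM at 5% CO2 and 62.1, 50.9 and 58.2 CPM at 10% CO2 (log2 fold change -0.60, SE 0.12, adjusted p = 0.0184). DPP8, a protease that holds NLRP1 and CARD8 inactive, was at 65.7, 72.3 and 56.4 CPM at 5% CO2 and 48.4, 41.6 and 47.1 CPM at 10% CO2 (log2 fold change -0.50, SE 0.10, adjusted p = 0.0121), and NLRP1 itself at 7.58, 4.73 and 4.69 CPM at 5% CO2 and 3.70, 2.75 and 3.17 CPM at 10% CO2 (log2 fold change -0.82, SE 0.22, adjusted p = 0.038). NLRP3 and NLRP1 encode sensors and DPP8 a restraint, so the called members do not act in one sense. Without C2 or H2 no inflammasome gene was called, and without C1 or H3 only 1 was. The NF-kB list had 1 call without H2, 2 without H3 and 7 without C3, and the LPS sensing list had 1 call without C1, C2, H2 or H3 and 9 without C3.

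Immediate-early transcription factors had few calls. Of 40 genes 1 rose and 1 fell (5.00% called, against 14.4% of genes of 20 CPM or more), with a median of -0.14. Without C3 the counts were 2 and 15. NAB1, a co-repressor of EGR proteins, was at 124, 120.1 and 131 CPM at 5% CO2 and 165, 177 and 167 CPM at 10% CO2 (log2 fold change 0.44, SE 0.07, adjusted p = 0.00467), and MYC at 48.6, 36.8 and 45.1 CPM at 5% CO2 and 34.6, 30.7 and 32.8 CPM at 10% CO2 (log2 fold change -0.41, SE 0.11, adjusted p = 0.0326). JUN was at 729, 851 and 616 CPM at 5% CO2 and 576, 604 and 577 CPM at 10% CO2 (adjusted p = 0.0677) and EGR1 at 135, 176 and 106 CPM at 5% CO2 and 112, 112 and 106 CPM at 10% CO2 (adjusted p = 0.266). Members of the NR4A family, the study's subject, were not called. NR4A2 was at 68.4, 79.3 and 58.1 CPM at 5% CO2 and 53.0, 60.0 and 58.5 CPM at 10% CO2 (log2 fold change -0.26, SE 0.11, adjusted p = 0.143), NR4A3 at 54.1, 54.6 and 57.7 CPM at 5% CO2 and 58.8, 66.6 and 69.8 CPM at 10% CO2 (log2 fold change 0.23, SE 0.08, adjusted p = 0.106), and NR4A1 at 44.6, 36.1 and 28.8 CPM at 5% CO2 and 28.7, 29.0 and 33.4 CPM at 10% CO2 (log2 fold change -0.26, SE 0.14, adjusted p = 0.279). Only NR4A3 had no overlap, with higher values at 10% CO2. In untransformed THP-1 cells with a longer CO2 exposure, the study measured these genes by RT-qPCR. It reports lower NR4A2 and higher NR4A3 at 10% CO2 after 2 h of LPS, and less NR4A2 protein. The log2 fold changes of NR4A2 and NR4A3 here had the same signs. Of 35 MAP kinase phosphatases and mRNA decay factors none rose and 2 fell (5.71% called, against 14.4% of genes of 20 CPM or more). ZFP36, tristetraprolin, which speeds the decay of cytokine mRNAs, was at 142, 158 and 126 CPM at 5% CO2 and 96.3, 104 and 99.0 CPM at 10% CO2 (log2 fold change -0.50, SE 0.09, adjusted p = 0.00632), and DUSP10 at 51.0, 43.1 and 38.4 CPM at 5% CO2 and 37.6, 28.1 and 30.7 CPM at 10% CO2 (log2 fold change -0.46, SE 0.13, adjusted p = 0.0442). Interferon-stimulated genes were mostly not called (3 of 46 higher, 1 lower, 8.70% called). GBP5, a guanylate-binding protein, was at 57.8, 52.2 and 66.2 CPM at 5% CO2 and 73.1, 102 and 93.0 CPM at 10% CO2 (log2 fold change 0.61, SE 0.13, adjusted p = 0.0201), and IFIH1, the RNA sensor MDA5, at 29.7, 28.4 and 39.9 CPM at 5% CO2 and 43.5, 55.2 and 49.5 CPM at 10% CO2 (log2 fold change 0.60, SE 0.13, adjusted p = 0.0237). No interferon-stimulated gene was called without C1, C2 or H2, 6 were called higher and none lower without H1 (median 0.08), and none higher and 3 lower without H3 (median -0.11). Of the phosphatase and decay genes 1 was called without C1, C2, H2 or H3.

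Genes that LPS induces had a higher median at 10% CO2. The class was made without the 6 libraries, from the 5% CO2 libraries of the knockdown lines, and holds genes called for LPS with a log2 fold change of at least 2 in both lines. It had 517 members, 53 called higher and 5 lower at 10% CO2 (11.2%, against 8.19% of all genes tested), with a median log2 fold change of 0.24. All 3 libraries at 10% CO2 stood above all those at 5% CO2 for 155 of the 517 members and below for 24. Over all genes tested 15.7% stood above and 14.3% below. The 402 LPS-repressed genes (log2 fold change of -1 or less in both lines) had 5 called higher and 33 lower (9.45% called). Their median was -0.15, and the 16801 genes in neither class had a median of -0.0052. In resting shNT cells the medians of the induced and repressed classes were -0.05 and -0.02. As 346 of the induced genes had under 1 CPM at rest, the 114 with a mean of at least 5 CPM there were also taken, and their medians were 0.25 with LPS and -0.11 at rest. The interaction of CO2 with LPS was positive for 373 of the 517 induced genes and for 8498 of the 17720 genes tested. Over the fits with 1 library left out the induced class had a median of 0.17 to 0.28. Leaving out H2, C1, C2, H1, H3 or C3 gave 16, 17, 22, 32, 35 and 106 members called higher and, of the repressed class, 11, 11, 16, 32, 17 and 55 called lower. SHROOM3, FGF2, NAV3, DMXL2, CCL20, CCL4, GBP2, IL12B, TNIP3, REL and INHBA, described above except for GBP2 (0.43, adjusted p = 0.0248), were among its called members. ATP2B1, a plasma membrane calcium pump, was another, at 200.2, 133 and 219.9 CPM at 5% CO2 and 356, 378 and 324 CPM at 10% CO2 (log2 fold change 0.94, SE 0.19, adjusted p = 0.0375).

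**Figure D4:**
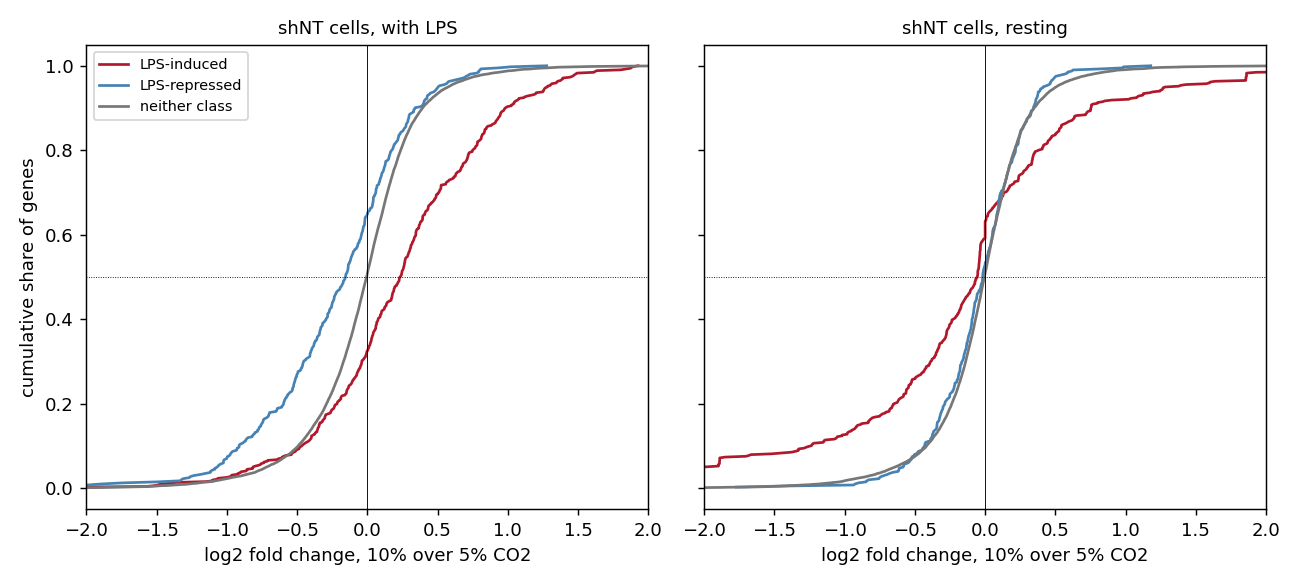
Cumulative share of genes (vertical axis, from 0 to 1) by log2 fold change of 10% over 5% CO2 (horizontal axis, shown from -2 to 2) in shNT cells with LPS (left) and at rest (right), for 517 LPS-induced genes (red), 402 LPS-repressed genes (blue) and the 16801 genes in neither class (grey, Y-linked genes and XIST left out). With LPS the red curve lies to the right of the grey one at its midpoint and the blue curve to the left, and at rest the 3 curves meet near 0, the red one with wide tails from genes of few counts.

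Called sterol genes fell with 1 exception. Cholesterol synthesis is run by the transcription factors SREBP-1 and SREBP-2, and INSIG1 holds their precursors in the endoplasmic reticulum. Of 37 genes 6 fell and 1 rose (18.9% called, against 14.4% of genes of 20 CPM or more), with a median of -0.16. SREBF1, the SREBP-1 gene, was at 109.8, 117 and 99.1 CPM at 5% CO2 and 72.5, 61.1 and 78.8 CPM at 10% CO2 (log2 fold change -0.62, SE 0.10, adjusted p = 0.00496). INSIG1 was at 92.3, 99.4 and 84.5 CPM at 5% CO2 and 69.5, 62.6 and 69.1 CPM at 10% CO2 (log2 fold change -0.46, SE 0.08, adjusted p = 0.00843). DHCR7, the last enzyme of cholesterol synthesis, was at 57.9, 61.6 and 56.3 CPM at 5% CO2 and 35.3, 30.3 and 44.1 CPM at 10% CO2 (log2 fold change -0.68, SE 0.12, adjusted p = 0.00843), IDI1, the isopentenyl diphosphate isomerase, at 66.4, 79.4 and 72.7 CPM at 5% CO2 and 48.9, 52.0 and 55.7 CPM at 10% CO2 (log2 fold change -0.48, SE 0.09, adjusted p = 0.00877). HMGCS1 fell with a log2 fold change of -0.30 (adjusted p = 0.0412). The groups of these 5 genes did not overlap. The riser was STARD4, a cytosolic sterol carrier, described below. Members called lower numbered 4 to 7 when 1 library was left out. The letters TCACNCCAC of a sterol regulatory element, on either strand, were in none of the 7 promoters of called members. They were in 1 of 28 promoters of the list (3.57%) and in 0.875% of all promoters. With so rare a match, 7 promoters of any genes would seldom hold one, so its absence there decides nothing.

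Calcium handling genes had calls in both directions. Of 48 genes 4 rose and 8 fell. ATP2C1, the calcium pump of the Golgi, was at 75.1, 76.5 and 86.5 CPM at 5% CO2 and 111, 136 and 111 CPM at 10% CO2 (log2 fold change 0.59, SE 0.09, adjusted p = 0.00496), and ITPR1, a calcium release channel of the endoplasmic reticulum, at 61.5, 72.7 and 61.9 CPM at 5% CO2 and 96.8, 93.0 and 85.9 CPM at 10% CO2 (log2 fold change 0.49, SE 0.09, adjusted p = 0.00752). ITPR2 also rose (0.47, adjusted p = 0.0225), as did ATP2B1. Of the channels of the plasma membrane that fell, P2RX1, an ATP-gated channel, was at 29.2, 26.0 and 28.8 CPM at 5% CO2 and 19.8, 16.6 and 21.2 CPM at 10% CO2 (log2 fold change -0.54, SE 0.11, adjusted p = 0.0124), and ORAI3, a store-operated channel, at 11.7, 11.6 and 10.9 CPM at 5% CO2 and 7.40, 7.28 and 7.78 CPM at 10% CO2 (log2 fold change -0.60, SE 0.12, adjusted p = 0.0135). TRPM4 fell with a log2 fold change of -0.47 (adjusted p = 0.0127), the calmodulin kinase gene CAMK2G with a log2 fold change of -0.59 (adjusted p = 0.00841), and CD38, the enzyme that makes cyclic ADP-ribose, with a log2 fold change of -0.57 (adjusted p = 0.00931). ATP2A3, a calcium pump of the endoplasmic reticulum, also fell (log2 fold change -0.43), unlike the pumps of the Golgi and the plasma membrane. Members called were 4 in all without C1 (2 higher, 2 lower) and 5 without H2 (3 higher, 2 lower).

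Transcription factors of blood cell development also moved in both directions, with 3 of 38 higher and 6 lower. The share called was 23.7%, against 14.4% of genes of 20 CPM or more. IKZF1, Ikaros, was at 150.2, 133 and 158 CPM at 5% CO2 and 233, 280.1 and 219 CPM at 10% CO2 (log2 fold change 0.73, SE 0.10, adjusted p = 0.00332), and ETS1 at 76.1, 78.7 and 91.7 CPM at 5% CO2 and 113, 112 and 111 CPM at 10% CO2 (log2 fold change 0.45, SE 0.08, adjusted p = 0.00857). FLI1 was at 142, 155 and 128 CPM at 5% CO2 and 119, 94.8 and 111 CPM at 10% CO2 (log2 fold change -0.39, SE 0.10, adjusted p = 0.0277), ELF4 at 159, 162 and 109 CPM at 5% CO2 and 102, 86.0 and 91.3 CPM at 10% CO2 (log2 fold change -0.62, SE 0.15, adjusted p = 0.0413), and GATA2 at 20.05, 22.0 and 17.3 CPM at 5% CO2 and 12.6, 14.2 and 15.2 CPM at 10% CO2 (log2 fold change -0.49, SE 0.12, adjusted p = 0.0263). No member was called lower without C1 or C2 or H2 or H3, 3 were without H1 and 11 without C3, and 2 or 3 were called higher in each case. CEBPA, the monocyte and granulocyte factor, was at 172, 192 and 112 CPM at 5% CO2 and 93.8, 84.6 and 80.8 CPM at 10% CO2 (log2 fold change -0.88, SE 0.20, adjusted p = 0.0517), just outside the threshold, and SPI1 at 489, 377 and 419 CPM at 5% CO2 and 423, 367 and 359 CPM at 10% CO2 (adjusted p = 0.324). RUNX1 (0.23, adjusted p = 0.122) and LMO2 (-0.34, adjusted p = 0.0653) were not called.

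On the cell surface, CD44, the hyaluronan receptor, rose and is described below, and SELPLG, the selectin ligand PSGL-1, was at 31.9, 29.0 and 23.1 CPM at 5% CO2 and 18.1, 13.8 and 15.8 CPM at 10% CO2 (log2 fold change -0.82, SE 0.13, adjusted p = 0.00622). ITGA5, the alpha subunit of the fibronectin receptor, was at 217, 221 and 172 CPM at 5% CO2 and 145, 109.6 and 122 CPM at 10% CO2 (log2 fold change -0.69, SE 0.12, adjusted p = 0.0121), and its partner ITGB1 at 215, 227 and 225 CPM at 5% CO2 and 273, 272 and 269 CPM at 10% CO2 (log2 fold change 0.29, SE 0.06, adjusted p = 0.0171), so the 2 subunits moved in opposite directions. In antigen presentation 2 of 33 genes were called (6.06%, against 14.4% of genes of 20 CPM or more), and both fell. CD1D, which presents lipids, was at 43.4, 40.9 and 35.4 CPM at 5% CO2 and 25.4, 15.4 and 23.5 CPM at 10% CO2 (log2 fold change -0.89, SE 0.17, adjusted p = 0.0154), and CD74, the invariant chain, at 91.5, 98.3 and 97.8 CPM at 5% CO2 and 78.3, 80.8 and 78.4 CPM at 10% CO2 (log2 fold change -0.28, SE 0.07, adjusted p = 0.0312). Of 39 cell death genes none rose and 6 fell (15.4% called, near the 14.4% of genes of 20 CPM or more). The pro-apoptotic BIK was at 33.6, 37.0 and 32.5 CPM at 5% CO2 and 22.5, 19.8 and 23.9 CPM at 10% CO2 (log2 fold change -0.64, SE 0.10, adjusted p = 0.00467), and BBC3, which encodes PUMA, at 13.9, 13.6 and 13.1 CPM at 5% CO2 and 8.73, 9.86 and 9.84 CPM at 10% CO2 (log2 fold change -0.51, SE 0.12, adjusted p = 0.0218). CDKN1A, the cell cycle inhibitor p21, was at 147, 147 and 126 CPM at 5% CO2 and 112, 106 and 119.5 CPM at 10% CO2 (log2 fold change -0.32, SE 0.08, adjusted p = 0.0311). Between 1 and 7 members were called lower with 1 library left out, with 1 without C1, C2 or H2, 2 without H3 and 3 without H1. The surface list had 3 calls without C1 or H2, 4 without H3 and 13 without C3, and antigen presentation had none without C1 or C2, 1 without H2 or H3 and 4 without C3.

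Whether the CO2 response depended on LPS was tested in the 12 shNT libraries as an interaction, and 4 genes were called (0.0226% of 17720), all responding more positively to 10% CO2 with LPS than at rest. HIVEP2, a zinc-finger protein that binds NF-kB-like sites (chr6:142751467-142945201, minus strand, GRCh38), was at 40.3, 41.5 and 43.3 CPM at rest and 5% CO2 and 33.2, 27.2 and 30.5 CPM at rest and 10% CO2, in the scale of the 12 libraries. With LPS it was at 121, 102 and 138 CPM at 5% CO2 and 198, 195 and 198 CPM at 10% CO2. Its 10% CO2 libraries thus lay below those at 5% CO2 at rest and above them with LPS, and the log2 difference of the responses was 1.17 (SE 0.14, adjusted p = 0.00217). PDGFA, a growth factor (chr7:497258-520296, minus strand), was at 6.10, 4.91 and 5.23 CPM at 5% CO2 and 3.29, 3.09 and 3.68 CPM at 10% CO2 at rest. With LPS it was at 30.3, 30.6 and 41.8 CPM at 5% CO2 and 47.4, 60.9 and 51.5 CPM at 10% CO2 (difference 1.33, SE 0.22, adjusted p = 0.0434). All 3 libraries at 10% CO2 were again lower at rest and higher with LPS. CD44 (chr11:35138870-35232402, plus strand) was at 131, 111 and 102 CPM at 5% CO2 and 93.0, 75.5 and 71.6 CPM at 10% CO2 at rest. With LPS it was at 253, 203 and 249 CPM at 5% CO2 and 392, 407 and 302 CPM at 10% CO2 (difference 1.16, SE 0.18, adjusted p = 0.0434). STARD4 (chr5:111496033-111512590, minus strand) was at 19.7, 17.9 and 19.7 CPM at 5% CO2 and 14.4, 14.1 and 14.7 CPM at 10% CO2 at rest. With LPS it was at 62.7, 64.2 and 72.6 CPM at 5% CO2 and 83.4, 111 and 89.3 CPM at 10% CO2 (difference 0.91, SE 0.15, adjusted p = 0.0434). The pattern was the same in all 4 genes, with separate groups in both states. CDK6, the next by p, had a difference of 0.77 (adjusted p = 0.0646). The count was 1 gene without any of 8 of the 12 libraries, and 37, 27, 6 and 2 without C3, resting 10% CO2 replicate 1, H1 and H3, and 0 in a fit to all 36 libraries.

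**Figure D5:**
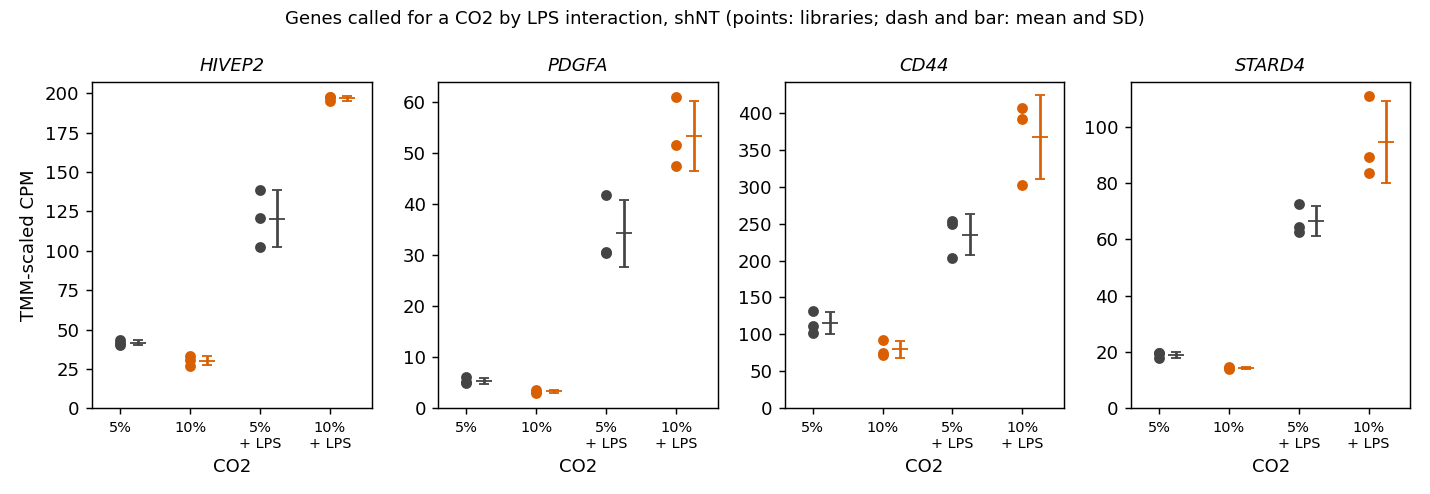
TMM-scaled CPM (linear axes from 0) of HIVEP2, PDGFA, CD44 and STARD4 in the 12 shNT libraries by CO2 level and LPS, 1 point per library, with the mean and SD of 3 libraries beside them. In each gene the orange points (10% CO2) lie below the grey points (5% CO2) at rest and above them with LPS.

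Most other called genes had the same sign at rest. In resting shNT cells, which share no library with the comparison above, 109 genes were called (0.615%), and 71 of them were also called with LPS, all in the same direction, which is 65.1% of the resting calls and 4.89% of the calls with LPS. Of the 792 genes called higher with LPS 684 had a positive log2 fold change at rest, and of the 660 called lower 626 had a negative one, against 48.7% positive and 51.1% negative over all genes, with medians of 0.23 and -0.25 at rest against 0.43 and -0.48 with LPS. The larger medians with LPS are in part set by the choice of genes, which used the LPS libraries. SLC39A14 had a log2 fold change of 0.68 at rest (SE 0.11, adjusted p = 0.0325), FKBP4 of 0.68 (adjusted p = 0.0325), PYCR1 of 0.73 (adjusted p = 0.0325), VIM of -0.56 (adjusted p = 0.0325) and INSIG1 of -0.64 (adjusted p = 0.0325). In the LPS-stimulated knockdown lines, again separate libraries, where 35 (0.198%) and 378 (2.13%) genes were called, 785 of the 792 genes had a positive sign in shNR4A2 cells and 787 in shNR4A3 cells, and 649 and 654 of the 660 a negative one. SLC39A14 had log2 fold changes of 0.52 and 0.57 there, POLR1A of 0.76 and 0.56, CYTH2 of -0.74 and -0.65, and HIVEP2 of 0.95 and 0.60. Not every list kept its size. The median of the mitochondrially encoded genes was 0.54 in shNR4A2 and 0.25 in shNR4A3 cells, against 1.07 in shNT cells. For nuclear-encoded respiratory subunits the medians were 0.0033 and 0.09, against 0.11. For cytosolic chaperones they were 0.21 and 0.28, against 0.27. The difference of the CO2 response between shNT and each knockdown line was called for no gene by edgeR. Its unadjusted p was under 0.05 for 458 and 370 of the 17720 genes tested. Both counts are smaller than that threshold would give if no gene differed, so the test was conservative here. The absence of calls therefore does not show that the lines responded alike.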

How the data were processed

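Total RNA of THP-1 cells was sequenced as polyadenylated RNA. According to the submitters' processing notes and the study's methods, the authors used Trimmomatic 0.36 for trimming, STAR 2.5.2b for alignment (GRCh38) and featureCounts of Subread 1.5.2 for counting per gene, and deposited raw counts for each library. Whether counting used strand, which gene annotation it used and whether a pair was 1 count are not given in the sources used here, so counts of overlapping and antisense genes are uncertain.

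From these counts, the 17720 genes that passed edgeR's filterByExpr (minimum count 10, minimum total 15) over 36 libraries and 12 conditions were kept, and the 6 libraries were scaled by TMM and compared with edgeR 4.0.16 (R 4.3.3) by the robust quasi-likelihood F test, two-sided, with Benjamini-Hochberg adjustment. The study's methods use DESeq2, run here (1.42.0) as an alternative. The SE of a log2 fold change was derived from the F statistic. CPM values are TMM-scaled within the 6 libraries unless another scale is named. Other alternatives were RLE or library-total scaling, TMM without mitochondrial genes, other filters, a replicate block, 1 fit to 36 libraries, stricter thresholds and leaving out each library. Replicate pairs differed by 8.97 to 16 times counting noise, so none was a repeat deposit of 1 library. The edgeR and DESeq2 tests of CO2 with LPS were also run on simulated counts with known changes. Both took a larger share of their calls from unchanged genes than the threshold sets. Both also missed most of the smallest changes, so calls near the threshold are the least certain.

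Gene names came from reference tables of gene identifiers, which matched 56410 of 57500 identifiers. Genes named were the 12 called genes per direction of largest change at 5 CPM or more with no overlap, the 12 of smallest adjusted p, and in each list up to 5 called members per direction, up to 3 of the highest level and all members of 6 lists, besides genes the study names and the 5 of smallest interaction p. The choice of ATP2A3 and TRAC was made once their values were known. The members and the lists were chosen with earlier results of these data known. Genes on the Y chromosome and XIST are not described.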

Additional observations from a re-analysis of the deposited data

Results flagged for a closer look

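A total of 4 genes differed between resting and LPS-stimulated shNT cells in their response to CO2, by a test of the difference itself. The log2 difference of the responses, LPS minus resting, was 1.17 for HIVEP2 (SE 0.14, adjusted p = 0.00217), 1.33 for PDGFA (SE 0.22, adjusted p = 0.0434), 1.16 for CD44 (SE 0.18, adjusted p = 0.0434) and 0.91 for STARD4 (SE 0.15, adjusted p = 0.0434), each by edgeR's quasi-likelihood test. In resting cells the log2 fold change of 10% over 5% CO2 was -0.45, -0.69, -0.52 and -0.40, and with LPS it was 0.71, 0.64, 0.65 and 0.51, in the same order of genes. All 4 were also called by DESeq2, and none in the fit to all 36 libraries.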

How the results depend on the processing

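The count of 1452 genes became 2238 with no filter on low counts, 243 at an adjusted p under 0.01 and 431 with a fold of at least 1.5, and ranged from 334 to 2148 when 1 library was left out. DESeq2 called 1801 genes, RLE scaling 1452, library totals 1333, TMM without mitochondrial genes 1449, the filter within the 6 libraries 1571 and 1 fit to 36 libraries 1289. Replicate numbers did not pair the samples throughout (correlations of deviations 0.63, -0.23 and -0.10 for the same number). Between groups and across numbers the correlation was 0.42 for C2 with H3 and 0.57 for C3 with H2, and negative for the other pairs. Whether those libraries were matched was not tested, and no fit used such a pairing. A block by replicate number gave 1568 genes and 13 for the interaction. The interaction count of 4 became 2 with library totals, 53 with DESeq2, 108 with no filter and 0 in the fit to 36 libraries, and ranged from 1 to 37 when 1 library was left out. Among mitochondrially encoded genes 3 were called with library totals and none with the block. Of the LPS-induced class DESeq2 called 99, of the chaperones 19, and of the NF-kB list 9. Of 146 genes described as called, none changed direction under these alternatives, but 74 were no longer called without C1, 71 without H2, 67 without C2, 44 without H3, 29 without H1, 6 without C3, 34 in the fit to 36 libraries and 9 with the block. Of genes not called, CXCL8 was at -0.0326 with library totals and -0.0874 to 0.14 when 1 library was left out, IL1B at -5.7072e-05 to 0.26, and NFKBIA at -0.0898 to 0.00863 (log2). Why these values moved was not tested. With 3 libraries a group and a biological coefficient of variation of 10.1%, genes of few counts needed larger changes to be called.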

Other observations

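Other gene groups also had members called between 10% and 5% CO2 with LPS. In the lists with calls below, 3.70% (lysosome and proton pump) to 16.7% (SR proteins and splicing kinases) of members were called. The share among genes of 20 CPM or more was 14.4%. Of 44 glycolysis and hypoxia-inducible genes 1 rose and 4 fell, with a median of -0.16, and none was called without C2, 1 without C1 or H2, and 2 without H1. HK2, a hexokinase, was at 25.4, 23.6 and 19.9 CPM at 5% CO2 and 37.3, 30.9 and 30.3 CPM at 10% CO2 (log2 fold change 0.52, SE 0.11, adjusted p = 0.0184), whereas PFKFB4, which makes a regulator of glycolysis, was at 8.07, 8.73 and 6.90 CPM at 5% CO2 and 4.75, 3.98 and 6.26 CPM at 10% CO2 (log2 fold change -0.65, SE 0.18, adjusted p = 0.0431) and BNIP3L, a mitophagy receptor, at 34.7, 35.5 and 34.0 CPM at 5% CO2 and 28.4, 20.2 and 25.8 CPM at 10% CO2 (log2 fold change -0.48, SE 0.11, adjusted p = 0.0234). The groups did not overlap in these genes. In the list of 38 cAMP signalling genes 3 rose and 2 fell, with no call without C1 or H2, 1 without C2 and 2 without H3. The phosphodiesterase gene PDE4A was at 30.0, 21.3 and 20.7 CPM at 5% CO2 and 16.2, 11.7 and 15.7 CPM at 10% CO2 (log2 fold change -0.72, SE 0.17, adjusted p = 0.0268), and SIK3, a salt-inducible kinase, at 57.7, 53.5 and 57.7 CPM at 5% CO2 and 69.9, 91.2 and 70.3 CPM at 10% CO2 (log2 fold change 0.45, SE 0.10, adjusted p = 0.0201). Of 33 SOCS and JAK-STAT genes 3 rose and 1 fell (1 call without C1, C2 or H2 and 6 without C3), among them IL6ST, the gp130 receptor subunit (0.53, adjusted p = 0.0143), and the phosphatase gene PTPN1 (0.39, adjusted p = 0.0134). In the prostaglandin and leukotriene list PLA2G4A, described above, and PLA2G4C rose (0.69, adjusted p = 0.0404) and ALOX5, the 5-lipoxygenase, was at 88.2, 77.8 and 79.4 CPM at 5% CO2 and 69.0, 48.4 and 60.4 CPM at 10% CO2 (log2 fold change -0.46, SE 0.11, adjusted p = 0.0305), and the list had 1 call without C2, H2 or H3 and 5 without C3.

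Among 36 SR proteins and splicing kinases 4 rose and 2 fell, with no call without C1 or H2, 1 without C2 or H3 and 13 without C3. SRPK1, a kinase of SR proteins, was at 102, 107 and 133 CPM at 5% CO2 and 148, 197 and 174 CPM at 10% CO2 (log2 fold change 0.60, SE 0.12, adjusted p = 0.0206), and SRSF5 at 440.0, 419 and 298 CPM at 5% CO2 and 258, 221 and 262 CPM at 10% CO2 (log2 fold change -0.64, SE 0.15, adjusted p = 0.0375). In the mitosis list of 35 genes CDK1 rose (0.38, adjusted p = 0.0228) and PLK1 (-0.55, adjusted p = 0.0411) and KIF23 (-0.43, adjusted p = 0.0356) fell, and no member was called without C1, C2 or H2 and 1 without H1. Of 31 antioxidant and NRF2 target genes neither edgeR nor DESeq2 called any, and 3 had an unadjusted edgeR p under 0.05. Of 54 lysosome and proton pump genes none rose and 2 fell, CLCN7 (-0.34) and LAPTM5 (-0.27), and none was called without C1, C2, H2 or H3 and 1 without H1.

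Called genes were longer than the genes tested. Median gene model length was 5816.5 bases for genes called higher, 5011 for those called lower and 4197 over all genes tested, and among the 3543 longest genes (7411 bases or more) 263 genes were called higher and 139 lower. Their level was also higher, with medians of 47.5 and 35.8 CPM against 10.9 CPM.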
